A study of Mus musculus with 9 samples.

Results

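Open chromatin that was called in every ATAC-seq library of the series, with or without the Cdx2 deletion implied by the labels, was taken here as 1 set of regions. Overlapping peaks of the 4 ATAC-seq lists on chromosomes 1 to 19 and X were merged into 106425 regions. Of these, 3772 held a peak of every list, and the 3655 of them (3.43% of all regions) that overlapped no Cdx2 ChIP-seq peak are called shared regions below. The regions were chosen by the peak calls themselves, so their presence in all lists and the strength of their peaks are given as a description, with no test.

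The libraries came from colon epithelial cells of mice, enriched with EDTA. ATAC-seq was run on 2 libraries labelled DKO and 2 labelled Wt, RNA-seq on another 2 and 2, and ChIP-seq of Cdx2 on 1 library labelled Wt. All carried the Cdx1-/- and Cdx2f/f alleles by their strain labels, so the libraries called Wt are labelled Cdx1 null as well. DKO libraries carried the tag vill (+), against vill (-) in Wt. ATAC-seq and RNA-seq mice of both groups received tamoxifen for 6 days, whereas the ChIP-seq sample is tagged untreated. Age and sex are not in the labels, which also do not say whether replicates came from separate animals. Any p-value here therefore reflects how far these libraries vary, which may be technical variation. In bulk samples, fewer cells of a type and less RNA or open chromatin per cell cannot be told apart.

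ATAC-seq marks DNA that a transposase can reach, and such DNA lies mostly at gene starts and at enhancers. Starts rich in the dinucleotide CpG are often free of nucleosomes in many cell types, while enhancers tend to be open in few. Cdx2 is a homeobox transcription factor that binds enhancers and gene starts of the intestinal epithelium.

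The DNA at the shared regions is shown first, because the composition of their promoters is one of the features described below. The promoters of 5 genes with a shared region and of 2 genes without one are printed from RefSeq (GRCm38.p6), 250 bases before to 50 after the start, 5′ to 3′, with each CpG in capitals. Adss, Ap1s2 and Myo3a hold the strongest shared regions within such a window, while Tc2n and Upp2 lie at the upper and lower end of the RNA-seq changes below. Cdx2 and Trim31, named in the series title, had a region in both Wt lists and in neither DKO list.
Adss, chr1:177796460-177796759, minus strand: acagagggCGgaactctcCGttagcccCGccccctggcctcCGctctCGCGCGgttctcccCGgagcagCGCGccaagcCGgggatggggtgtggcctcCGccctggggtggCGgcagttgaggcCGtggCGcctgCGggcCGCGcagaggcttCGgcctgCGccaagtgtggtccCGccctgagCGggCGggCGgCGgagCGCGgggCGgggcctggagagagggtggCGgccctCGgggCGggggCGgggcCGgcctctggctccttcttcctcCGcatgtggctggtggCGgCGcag
Ap1s2, chrX:163908767-163909066, plus strand: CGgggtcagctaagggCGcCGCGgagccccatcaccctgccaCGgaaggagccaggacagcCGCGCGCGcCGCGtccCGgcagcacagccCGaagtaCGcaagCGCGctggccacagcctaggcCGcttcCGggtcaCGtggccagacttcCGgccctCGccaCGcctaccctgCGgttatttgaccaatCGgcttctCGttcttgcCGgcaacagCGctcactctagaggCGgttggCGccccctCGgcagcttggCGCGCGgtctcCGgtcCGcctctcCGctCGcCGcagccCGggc
Myo3a, chr2:22227253-22227552, plus strand: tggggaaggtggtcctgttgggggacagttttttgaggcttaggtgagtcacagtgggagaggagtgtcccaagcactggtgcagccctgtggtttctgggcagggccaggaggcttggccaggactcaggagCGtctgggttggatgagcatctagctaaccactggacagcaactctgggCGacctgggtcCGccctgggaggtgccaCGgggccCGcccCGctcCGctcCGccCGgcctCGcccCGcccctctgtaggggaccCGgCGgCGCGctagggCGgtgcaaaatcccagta
Tc2n, chr12:101718474-101718773, minus strand: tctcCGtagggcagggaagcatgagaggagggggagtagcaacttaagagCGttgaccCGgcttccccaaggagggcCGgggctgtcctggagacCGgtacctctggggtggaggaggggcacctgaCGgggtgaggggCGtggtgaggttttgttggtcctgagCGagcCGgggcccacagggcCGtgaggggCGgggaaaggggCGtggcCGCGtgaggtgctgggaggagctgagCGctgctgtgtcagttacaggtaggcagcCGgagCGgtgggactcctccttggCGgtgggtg
Upp2, chr2:58567084-58567383, plus strand: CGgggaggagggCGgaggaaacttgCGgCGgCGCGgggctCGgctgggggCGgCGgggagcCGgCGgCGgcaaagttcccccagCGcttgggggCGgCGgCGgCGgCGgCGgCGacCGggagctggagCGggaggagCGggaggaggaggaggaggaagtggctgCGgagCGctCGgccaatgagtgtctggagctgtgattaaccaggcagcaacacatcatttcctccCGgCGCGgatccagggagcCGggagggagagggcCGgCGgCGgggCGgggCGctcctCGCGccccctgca
Cdx2, chr5:147307200-147307499, minus strand: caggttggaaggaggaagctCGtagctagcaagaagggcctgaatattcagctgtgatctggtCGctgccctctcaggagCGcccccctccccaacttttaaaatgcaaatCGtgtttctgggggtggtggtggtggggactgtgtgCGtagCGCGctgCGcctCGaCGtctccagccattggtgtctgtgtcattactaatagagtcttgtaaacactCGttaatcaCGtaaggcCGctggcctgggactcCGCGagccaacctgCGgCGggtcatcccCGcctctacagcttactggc
Trim31, chr17:36897880-36898179, plus strand: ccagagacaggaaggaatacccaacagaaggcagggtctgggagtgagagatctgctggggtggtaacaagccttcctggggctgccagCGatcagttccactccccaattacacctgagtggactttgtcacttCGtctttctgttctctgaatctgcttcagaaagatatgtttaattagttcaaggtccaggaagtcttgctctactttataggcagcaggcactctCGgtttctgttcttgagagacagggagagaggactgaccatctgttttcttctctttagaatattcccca

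The Adss and Ap1s2 promoters held 36 and 39 CpGs, the Upp2 promoter 37, and those of Tc2n and Myo3a 18 and 16. The Cdx2 promoter held 18 CpGs and the Trim31 promoter 3. Adss encodes an enzyme of purine synthesis and Ap1s2 a subunit of a clathrin adaptor. Myo3a encodes an unconventional myosin, Tc2n a protein with C2 domains and Upp2 a uridine phosphorylase. Trim31 encodes an E3 ubiquitin ligase.

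Gene starts held most of the shared regions. A start was taken from RefSeq for protein-coding and lncRNA genes, and a region was placed by the median of its 4 strongest summits. By that rule 3045 shared regions (83.3%) lay within 1 kb of a start, against 20.5% of all regions and 30.2% of the 25301 regions in both Wt lists and neither DKO list, here called Wt-only. Another 288 lay further out and 322 (8.81%) at least 10 kb from any start, against 54.2% of all regions. Of the 5380 regions in 3 of the 4 lists, 65.6% lay within 1 kb of a start and 20.8% at least 10 kb away. Lying at gene starts was thus not particular to shared regions. Taken library by library, the strongest summit of a shared region was within 1 kb of a start in 83.0% and 83.2% of cases in the DKO libraries, and in 83.4% and 83.4% in the Wt libraries. The other peaks of the same lists did so in 7.08% and 24.1% of cases in DKO and in 31.5% and 30.4% in Wt. The share was higher for shared regions in each of the 4 lists, which all describe the same regions and so are no independent replicates. The DKO and Wt values of shared regions differed by -0.315 percentage points (exact permutation test over libraries, two-sided, p = 0.333, the smallest that 2 against 2 allows).

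**Figure D1:**
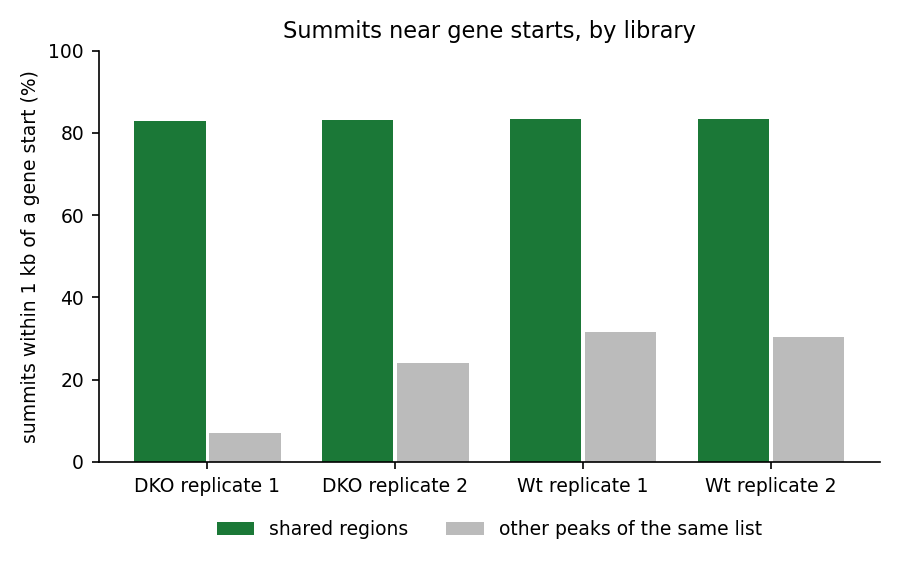
Percentage of summits within 1 kb of a gene start (y axis, from 0) in each ATAC-seq library (x axis, n = 2 libraries per group). Green bars are the strongest summits of shared regions and grey bars the other peaks of the same list: the green bars reach 83.0% to 83.4% in every library and the grey bars 7.08% to 31.5%.

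Among the 3045 shared regions at starts, 2647 lay at 1 protein-coding gene, 325 (10.7%) at more than 1 such gene and 73 at lncRNA genes only. The merged regions had a median width of 788 bp (quartiles 598 and 1009 bp), against 174 bp over all regions. It was 808 bp for regions in all 4 lists with a Cdx2 peak and 523 bp for those in 3 lists. Joining peaks of more lists widens a region, so this order is partly built into the rule. A median of 156 bp was covered by a peak of every list. In 519 shared regions (14.2%) the 4 lists were joined by a chain of overlaps and had no base in common. They include those at Dlgap1, Igfbp3, Gtf2h1, Gata6, Cldn12, Atoh1 and Ctcf, genes named below. At Tjp1 the lists had 5 bp in common. In 2068 regions (56.6%) each list had exactly 1 peak.

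The depth of sequencing is unknown, since the lists give no read counts, and the lists differed in size and strength. They held 40101 and 23961 peaks in the DKO libraries and 48159 and 53937 in the Wt libraries on these chromosomes. Fold enrichment over local background, the authors' value for each peak, had a median of 3.90 and 3.77 in the DKO lists and of 4.95 and 4.88 in the Wt lists. Peaks in shared regions made up 10.8% and 17.9% of the DKO lists and 9.36% and 7.92% of the Wt lists. Leaving out DKO replicate 1 raised the number of regions to 7137, the largest change from any 1 library. How far these differences between lists bear on the results below was not tested.

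Within the Wt lists the shared regions ranked high. Their strongest peak stood at a median percentile of 58.4 and 78.0 of fold enrichment in DKO replicates 1 and 2, and of 87.9 and 88.3 in Wt replicates 1 and 2. In DKO replicate 1, 42.0% of shared regions ranked below percentile 50 of the list, and in DKO replicate 2 it was 23.9%. The Wt lists had 12.1% and 9.96% below that percentile. The ranks come from lists of unequal length, so they describe each list and show no change between groups. At gene starts the median fold enrichment in the Wt lists was 8.22 and 8.35 for shared regions and 5.45 and 5.59 for the 7630 Wt-only regions. At least 10 kb from starts, the medians in the Wt lists were 5.50 and 5.78 for shared regions and 5.21 and 5.46 for Wt-only regions. In 3323 shared regions (90.9%) both DKO values of fold enrichment were below both Wt values, in 36 (0.985%) both were above, and in 296 (8.10%) the groups overlapped. The lists differ in strength as a whole, so a gap between the groups at a single region below is what most shared regions show. A strong peak is more likely to be called in every list, so this order is partly built into the choice of regions.

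**Figure D2:**
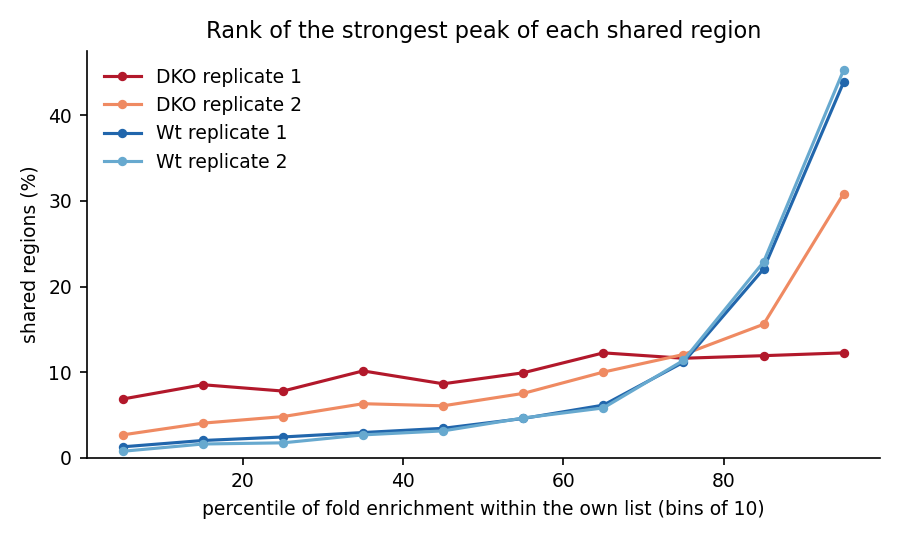
Percentage of shared regions (y axis) in each bin of 10 percentiles of the own list by fold enrichment of the strongest peak (x axis, percentile), 1 line per ATAC-seq library. Wt lines climb steeply in the top bin: it holds 12.3% in DKO replicate 1 and 30.9% in DKO replicate 2, against 43.9% and 45.3% in the Wt replicates.

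Fold enrichment across the 3655 shared regions followed the same order most closely in the Wt pair. Spearman's rho was 0.50 between the DKO libraries and 0.87 between the Wt libraries. Between the groups it was 0.23 and 0.24 for DKO replicate 1 and 0.43 and 0.45 for DKO replicate 2. These correlations run across regions within libraries and are given as a description, since the regions share library, depth and base composition.

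Summits in the DKO libraries were spread further from those of the Wt libraries than the Wt summits were from each other. The median distance between the strongest summits of 1 region was 116 bp between the DKO libraries and 42 bp between the Wt libraries. DKO replicate 1 was 169 and 171 bp from the Wt libraries, and DKO replicate 2 was 127 and 130 bp from them. In 45.7% of regions the DKO summits lay within 100 bp of each other, and in 72.0% the Wt summits did. Over regions with a single peak per list the distances were 95 bp in DKO, 38 bp in Wt and 102 to 129 bp between the groups. Because overlapping peaks chose the regions, these distances are bounded by the width of the peaks.

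Summits in DKO lay downstream of those in Wt. At 2425 shared regions within 1 kb of a protein-coding start of known strand, the median summit was 119 and 88 bp downstream of the start in DKO replicates 1 and 2, and 1 and 1 bp downstream in Wt replicates 1 and 2. Within 100 bp of the start lay 27.1% and 32.9% of DKO summits and 54.8% and 55.6% of Wt summits. Between 100 and 500 bp downstream lay 42.6% and 38.6% in DKO and 16.8% and 16.7% in Wt, while the same span upstream held 17.4% and 17.4% in DKO and 21.4% and 21.2% in Wt. The groups overlapped neither in the median nor in any of these shares. The mean of the medians was 103.5 ± 21.9 bp in DKO and 1 ± 0 bp in Wt (SD, n = 2 each; exact permutation test, two-sided, p = 0.333, the smallest possible). Over all peaks within 1 kb of such a start, in shared regions or not, 39.5% and 38.6% lay 100 to 500 bp downstream in the DKO lists and 20.2% and 20.03% in the Wt lists. Those were 4301 and 6376 summits in the DKO lists and 13047 and 13687 in the Wt lists, with shared regions included. Peaks outside shared regions were not counted apart, so whether the pattern is particular to shared regions was not tested.

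**Figure D3:**
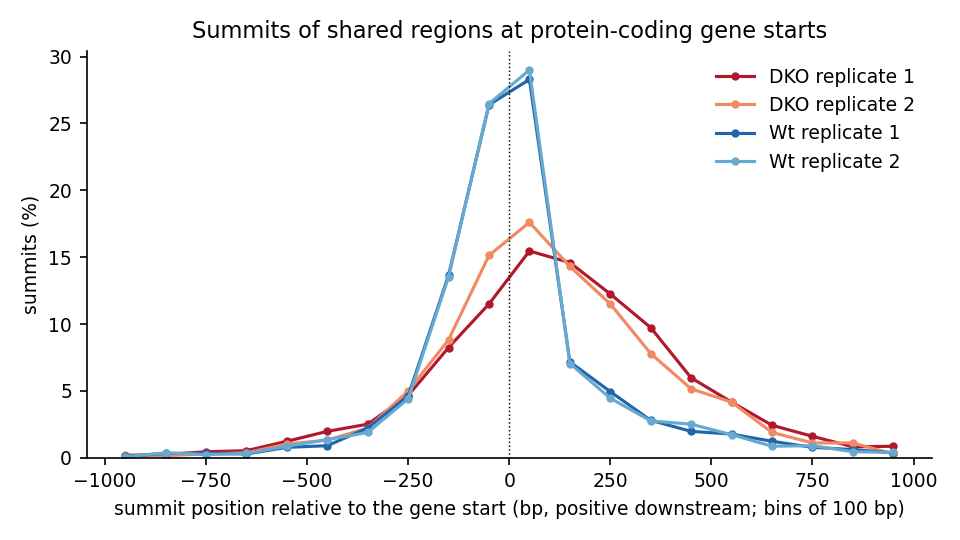
Position of the strongest summit of shared regions relative to protein-coding gene starts (x axis, bp, positive downstream, bins of 100 bp) as a percentage of 2425 summits per library (y axis), 1 line per ATAC-seq library. Both Wt lines peak at the start and fall off beyond 100 bp downstream, where both DKO lines stay above both Wt lines up to 900 bp.

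The offset was present at promoters of every CpG class. At promoters with 30 or more CpGs in the 300 bases (1053 regions), the median summit was at 77 and 45 bp in DKO and at -30 and -26 bp in Wt. With 20 to 29 CpGs (837 regions) it was at 113 and 87 bp in DKO and at -3 and -4 bp in Wt. At 10 to 19 CpGs (449 regions) it was at 178 and 174 bp in DKO and at 44 and 49 bp in Wt. The 86 regions at promoters with under 10 CpGs had medians of 218 and 235.5 bp in DKO and 178 and 184.5 bp in Wt.

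Promoters with a shared region were rich in CpG. The reference gave 21045 promoters of 17274 protein-coding genes, of which 3040 had a shared region within 1 kb of the start and 5616 a Wt-only region. The median number of CpGs in 300 bases was 27 (quartiles 20 and 36) at shared regions, 19 (12 and 26) at Wt-only regions, 3 (1 and 6) at promoters without any region and 13 over all promoters. Median GC content was 66.7% at shared regions, 59.3% at Wt-only regions and 56.7% over all promoters. Under 10 CpGs were found in 132 promoters at shared regions (4.34%), in 18.96% of those at Wt-only regions and in 42.7% of all. Genes at shared regions were also longer, with a median span of 42.6 kb (quartiles 19.5 and 89.3 kb), against 17.2 kb at Wt-only regions and 17.2 kb over all genes with such a promoter. The 2828 promoters at regions in 3 of the 4 lists lay between shared and Wt-only ones. Their medians were 24 CpGs, 63.7% GC and a gene span of 29.1 kb.

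**Figure D4:**
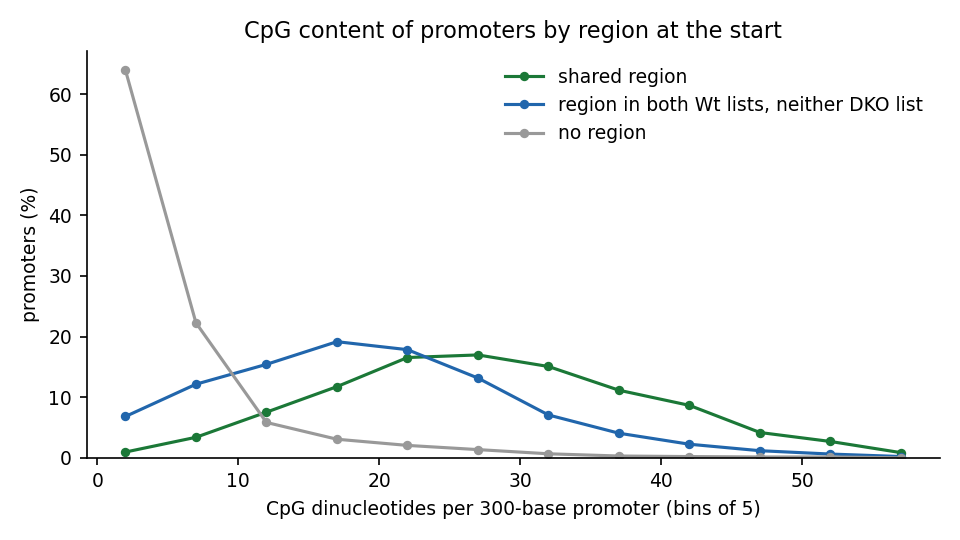
Number of CpG dinucleotides in the 300-base promoter (x axis, bins of 5) as a percentage of promoters (y axis), for starts with a shared region (n = 3040), with a region in both Wt lists and neither DKO list (n = 5616) and with no region (n = 7659). The medians are 27, 19 and 3.

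Short motifs were searched in these promoters on both strands, as exact letters, where matches of different motifs can share bases (CCAAT and CAATAAA, for example). The GC box GGGCGG, bound by SP and KLF factors, was in 78.9% of promoters at shared regions, 61.5% at Wt-only regions and 46.7% of all. The NRF1 motif was in 12.8%, 8.78% and 6.44% of these promoters in that order. The ETS motif CCGGAAG was in 15.9% at shared regions, 18.5% at Wt-only regions and 11.7% of all, so it was less common at shared than at Wt-only starts. Both Cdx motifs were rare at shared regions, with CAATAAA in 1.25% and CCATAAA in 1.15%, against 2.94% and 1.67% at Wt-only regions and 3.71% and 2.28% of all. The GATA motif AGATAA (2.89%, 7.02% and 9.68%), the AP-1 motif TGANTCA (3.36%, 5.54% and 7.04%) and the TATA motif TATAAA (3.95%, 7.66% and 12.7%) had the same order. CCAAT, the NFY motif, was in 34.3% of promoters at shared regions, 38.7% at Wt-only regions and 38.5% of all. The CTCF motif (2.63%, 2.31% and 1.64%), the YY1 motif AAGATGGC (4.31%, 4.31% and 3.07%), the CRE TGACGTCA (3.29%, 3.06% and 2.26%) and the HNF4 motif CAAAGTCC (1.22%, 1.496% and 1.44%) differed little between the 2 kinds of start. At regions in 3 of the 4 lists, the GC box was in 71.6% of promoters, the NRF1 motif in 11.7% and the ETS motif in 20.9%. AT-rich motifs are less likely in GC-rich DNA whatever binds there, and how far base composition accounts for these shares was not tested. A match is a string of letters and not a bound site.

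The shared regions at Adss, Ap1s2 and Myo3a, the strongest with a position inside the printed promoter window, were strong in every list. The Adss region (chromosome 1, 177795978 to 177796886, GRCm38) had a fold enrichment of 7.85 and 7.63 in DKO replicates 1 and 2, and of 12.4 and 12.3 in Wt replicates 1 and 2. At Ap1s2 (chromosome X, 163908642 to 163909693) it was 5.73 and 7.28 in DKO, against 12.9 and 13.0 in Wt. At Myo3a (chromosome 2, 22227140 to 22227704) the values were 5.73 and 6.398 in DKO and 13.6 and 13.9 in Wt. The lowest of these values stood at percentile 96.1 of its own list. The other start regions among the 8 with the highest mean percentile (98.3 to 99.9) were at Taco1, Gm52385, Uhmk1, Hibch and Ttc14. Those at Taco1 and Gm52385 ranked highest of the 8, with mean percentiles of 99.9 and 99.8, against 99.5 at Adss. Taco1 encodes an activator of mitochondrial translation and Hibch a mitochondrial enzyme of valine breakdown.

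Of the 322 shared regions at least 10 kb from a start, 169 (52.5%) lay inside a gene span and 153 between genes. Their strongest examples ranked at the top of every list. A region on chromosome 18 (73533295 to 73533606), 19.6 kb from the lncRNA Gm32022, had a fold enrichment of 16.7 and 15.3 in DKO and of 27.2 and 27.5 in Wt, the highest value of both Wt lists. A region on chromosome 4 (7391641 to 7391829), 169 kb from the lncRNA 8430436N08Rik, had 12.7 and 12.8 in DKO and 22.5 and 21.6 in Wt. A region on chromosome 9 (70622923 to 70623623), 33.7 kb from the start of Mindy2 and inside a gene span, had 14.6 and 12.1 in DKO and 17.9 and 16.7 in Wt. These 3 regions were 312, 189 and 701 bp wide. The nearest starts to the other 5 of these 8 regions were Gm39539, Aasdhppt, Gm41463, Timd2 and Frg1, at 14.5 to 93.7 kb.

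Shared regions lay at much the same distance from Cdx2 peaks as regions in general. Of the 3772 regions in all 4 lists, 117 (3.10%) overlapped 1 of the 5100 Cdx2 peaks on these chromosomes, against 6.12% of Wt-only regions and 2.25% of all regions. The 117 are left out by definition, so the distances below cover regions without such an overlap. The median gap to the nearest Cdx2 peak was 126 kb for shared regions, 89.6 kb for Wt-only regions and 136 kb over all regions. Within 10 kb of a Cdx2 peak lay 308 shared regions (8.43%), against 11.7% of Wt-only regions and 7.97% of all. Within 500 bp lay 31 shared regions (0.848%), against 1.41% of Wt-only regions and 0.817% of all. Just inside the rule were the regions at Ssr3, a subunit of the translocon-associated complex, 46 bp from a Cdx2 peak, and at Pnn, a nuclear protein, 94 bp from one. Their fold enrichment was 3.83 and 4.76 in DKO and 12.6 and 11.5 in Wt at Ssr3, and 4.07 and 3.46 in DKO and 10.4 and 11.6 in Wt at Pnn. Just outside were regions at Mob1a, of the Hippo pathway, and Nucks1, overlapping a Cdx2 peak by 6 and 20 bp. They had 4.58 and 3.93 in DKO and 8.72 and 8.99 in Wt at Mob1a, and 5.66 and 5.54 in DKO and 9.42 and 10.6 in Wt at Nucks1.

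RNA-seq gave values that the choice of regions did not use. The kinds of region were, however, sorted by whether the DKO lists held a peak. How far that sorting bears on the RNA-seq shares was not tested. Genes with a shared region at the start were more often higher in DKO than lower. Of 3164 such measured genes, 1032 (32.6%) were higher and 395 (12.5%) lower in DKO at an adjusted p under 0.05 by the authors' deposited table. Over all 17511 genes the authors' deposited table had 18.5% higher and 18.3% lower, and over the 15151 placed on the annotation 20.5% and 19.5%. For the 5680 measured genes with a Wt-only region, the counts by the authors' deposited table were 940 higher (16.5%) and 1187 lower (20.9%). For the 2731 with a region in 3 of the 4 lists, the authors' deposited table had 640 higher (23.4%) and 459 lower (16.8%). Median log2 fold changes in the authors' deposited table were 0.24 for genes at shared regions, -0.09 at Wt-only regions and -0.02 over all genes. Changes of at least 2-fold in the authors' deposited table made up 559 higher (17.7%) and 241 lower (7.62%) at shared regions. The same rule passed 11% higher and 13.2% lower of all genes, and 12% and 13.7% of placed genes, in the authors' deposited table. Choosing the regions without DKO replicate 1 gave 5857 genes, of which the authors' deposited table had 1686 higher (28.8%) and 840 lower (14.3%). These shares describe genes that share libraries and neighbours and carry no test of the difference between the kinds of start.

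**Figure D5:**
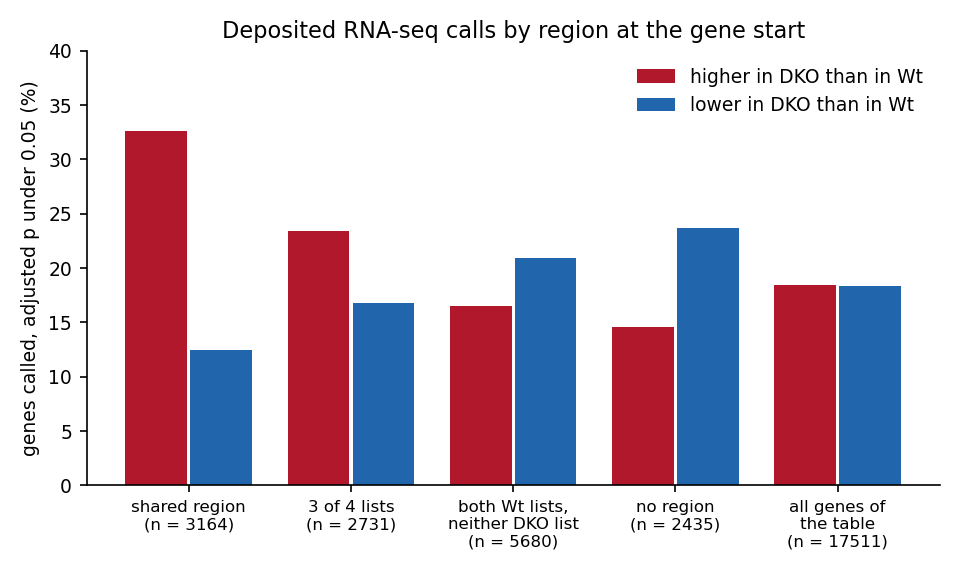
Percentage of measured genes called higher (red) or lower (blue) in DKO than in Wt at an adjusted p under 0.05 in the authors' deposited table (y axis, from 0), by the kind of region within 1 kb of the start (x axis, with the number of genes). At shared regions 32.6% were higher and 12.5% lower, against 16.5% and 20.9% at regions in both Wt lists and neither DKO list.

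Higher calls were more frequent at shared than at Wt-only regions in each class of CpG content, gene length and expression but 1. These classes cover only measured protein-coding genes with a promoter of known strand, a smaller set than above. Each was given its kind of region by its promoters of known strand. For promoters with 30 or more CpGs, the authors' deposited table had 38.7% of 1058 genes at shared regions higher and 8.70% lower, against 18.5% and 19.3% of 658 genes at Wt-only regions. With 10 to 19 CpGs the shares by the authors' deposited table were 30.04% higher and 15.6% lower at shared regions (456 genes), against 15.1% and 22.0% at Wt-only regions (1561 genes). Under 10 CpGs, where 89 genes had a shared region, the authors' deposited table gave nearly equal shares of higher calls, 22.5% at shared and 21.9% at Wt-only regions. In genes of 50 kb or more, the authors' deposited table put 31.8% at shared and 23.4% at Wt-only regions higher, and in genes under 10 kb 28.6% and 11.7%. For means of at least 50 and under 500 normalized counts, the authors' deposited table had 28.6% higher at shared and 17.7% at Wt-only regions. For means of at least 500 and under 5000, the shares by the authors' deposited table were 41.6% and 20.2%. The exception was a mean under 50, where the authors' deposited table put 3 of 222 genes (1.35%) at shared regions higher, against 4.16% of 577 at Wt-only regions.

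Counting genes whose mean normalized count reached 100, those at shared regions that rose furthest were of mixed function. Eya2, a transcriptional cofactor with phosphatase activity, had in the authors' deposited table a log2 ratio of DKO over Wt of 5.63 (SE 0.40, adjusted p = 3.53e-44) and a mean of 580 normalized counts. For Tc2n the authors' deposited table gave 5.34 (SE 0.24, adjusted p = 4.52e-109) and a mean of 2711. Also higher by the authors' deposited table were the adhesion receptor Adgrg2 (5.25), the scaffold gene Dlgap1 (5.16), the caveolin Cav2 (4.11), the calcium-binding Nucb2 (3.99) and the circadian repressor Ciart (3.83). Their regions ranged from weak to strong. The Eya2 region (chromosome 2, 165594910 to 165595313) had a fold enrichment of 4.51 and 3.19 in DKO and 3.73 and 5.11 in Wt, so the groups overlapped. The 4 lists had 9 bp in common there. At Tc2n (chromosome 12, 101718008 to 101719035) it was 5.40 and 5.74 in DKO and 11.6 and 12.9 in Wt, with no overlap, as at most shared regions. Eya2 was placed by both ends of the gene span, without strand.

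The genes at shared regions that fell furthest were also of mixed function. For the collagen gene Col1a2 the log2 fold change by the authors' deposited table was -4.53 (SE 0.29, adjusted p = 5.61e-52). The insulin-like growth factor binding proteins Igfbp7 and Igfbp3 were at -4.54 and -4.19 in the authors' deposited table. Upp2 had -4.84 (SE 0.55), the mitochondrial adenylate kinase Ak4 -4.60, the proprotein convertase Pcsk5 -4.51, the tubulin polymerization promoter Tppp -4.27 and the copine Cpne1 -3.86 by the authors' deposited table. The Col1a2 region (chromosome 6, 4505184 to 4505519) had a fold enrichment of 5.06 and 3.66 in DKO and 6.46 and 6.35 in Wt. The Upp2 region (chromosome 2, 58566716 to 58567742) had 3.61 and 4.33 in DKO and 8.23 and 8.39 in Wt. Both regions had lower values in DKO than in Wt, as most shared regions did. Of the 10 stroma, muscle and endothelium markers, the authors' deposited table called all lower, with a median log2 fold change of -5.20, and Col1a2 was the only one of them with a shared region at the start. The part of such cells in these falls was not tested.

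Of 14 markers of colon epithelium, all measured, Lgr5 alone had a shared region, at an end of its span without strand. Another 7 had a Wt-only region, 2 a region in 3 lists, 2 another region and 2 none. For Lgr5, a receptor of crypt stem cells, the authors' deposited table gave -0.32 (SE 0.60, adjusted p = 0.640). None of 8 leukocyte markers and none of 4 neuron and glia markers had a shared region at the start.

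Over all placed genes of the authors' deposited table, 20.9% had a shared region at the start, and the lists of basic cell functions were near or below that. Of 20 housekeeping genes, 4 had a shared region and 11 a Wt-only region, and of 22 cytosolic ribosomal protein genes 2 and 16. Proteasome subunits stood at 3 and 13 of 22, and RNA polymerase II and general factors at 5 and 13 of 22. Among the 4 housekeeping genes, the authors' deposited table called 1 higher and none lower, against 5 higher and 1 lower of all 20. The 1 called was the translation factor gene Eef1a1 (0.75, SE 0.18, adjusted p = 9.10e-05). Its region (chromosome 9, 78481333 to 78482190) had a fold enrichment of 3.64 and 5.08 in DKO and 7.83 and 8.57 in Wt. Not past the threshold in the authors' deposited table were the chaperone gene Hspa8 (-0.23, SE 0.22), placed without strand, and the transferrin receptor gene Tfrc (1.24, SE 0.81). By the authors' deposited table the ribosomal protein gene Rpl5 (0.91, SE 0.20) and the proteasome gene Psmd1 (0.65, SE 0.18) rose. Of the 5 polymerase and factor genes, the authors' deposited table had 3 higher and none lower, against 6 higher and 3 lower of all 22. These were the Mediator gene Med14 at 1.32 (SE 0.26), the TFIIH subunit Gtf2h1 at 0.81 (SE 0.21) and the polymerase subunit Polr2b at 0.76 (SE 0.21) by the authors' deposited table.

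Genes of chromatin regulators were also looked up. Of 20 remodelling and histone-modifying genes, 11 had a shared region and 5 a Wt-only region, and of 11 CTCF and cohesin genes 5 and 2. Calls by the authors' deposited table among the 11 remodelling and histone-modifying genes were 3 higher and 2 lower, against 4 higher and 4 lower of all 20. The median log2 fold change of these 11 was -0.22, against -0.03 for all 20 and 0.24 for all genes at shared regions. Called genes included Suz12 of the Polycomb complex at 1.36 (SE 0.29), the acetyltransferase Ep300 at 0.92 (SE 0.21) and the methyltransferase Kmt2d at -0.83 (SE 0.27) by the authors' deposited table. Kdm6a, a histone demethylase (0.82, SE 0.31), and Ezh2, the Polycomb methyltransferase (-0.59, SE 0.25), complete the calls by the authors' deposited table and were named after their values were seen. The remodeller Smarca4 (-0.22, SE 0.19) did not pass by the authors' deposited table. The Suz12 region (chromosome 11, 79992583 to 79993778) had a fold enrichment of 5.06 and 4.27 in DKO and 10.8 and 9.44 in Wt. For the 5 CTCF and cohesin genes, the authors' deposited table called 1, the cohesin subunit Stag1, higher at 1.03 (SE 0.28). Of all 11 in that list, 2 were higher and 1 lower by the authors' deposited table. Ctcf itself had 0.42 (SE 0.24, adjusted p = 0.152) by the authors' deposited table. The Ctcf region (chromosome 8, 105636056 to 105637488), without a base common to all lists, had a fold enrichment of 4.45 and 4.57 in DKO and 8.00 and 8.81 in Wt.

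Intestinal transcription factors at shared regions changed in both directions. Of 24 listed, 6 had a shared region and 12 a Wt-only region. By the authors' deposited table, of the 6 there were 2 higher and 4 lower, against 5 higher and 14 lower of all 24. For Atoh1, which directs secretory cell fate, the log2 fold change by the authors' deposited table was -2.38 (SE 0.23, adjusted p = 5.65e-24). Its region (chromosome 6, 64728952 to 64729624) held a peak of every list, at a fold enrichment of 4.24 and 5.18 in DKO and 5.20 and 3.78 in Wt, so the groups overlapped. The 4 lists had no base in common there, so these values do not belong to 1 site. Maf (-1.02, SE 0.25), Sox9 (-0.68, SE 0.26) and Klf5 (-0.48, SE 0.18) fell by the authors' deposited table, while Gata6 (0.68, SE 0.21) rose. The other one called higher by the authors' deposited table was Prdm1 (0.98, SE 0.40), named after its values were seen. Maf, Sox9, Klf5 and Gata6 were placed by both ends of the gene span, without strand. Of 18 goblet cell genes, Atoh1 was the only one at a shared region, and the authors' deposited table had 14 of the 18 lower and none higher. Of 22 absorptive colonocyte genes, the carbonic anhydrase Car2 and the phosphate transporter Slc20a1 were at shared regions. By the authors' deposited table Slc20a1 fell (-1.03, SE 0.31), Car2 did not pass (0.07, SE 0.25), and the full list stood at 1 higher and 17 lower. Car2 was placed without strand as well.

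Immediate early and inflammasome genes seldom had a shared region, set against 20.9% of all placed genes. NF-kB and chemokine genes and cell junction genes were near that share. Of 18 NF-kB and chemokine genes, 3 had a shared region, and the authors' deposited table called all 3 higher, against 12 higher and 1 lower of 17 measured. The neutrophil chemokine Cxcl2 had 5.82 (SE 1.00), the NF-kB inhibitor Nfkbia 2.21 (SE 0.23) and the deubiquitinase Tnfaip3 0.94 (SE 0.30) by the authors' deposited table. The Cxcl2 region (chromosome 5, 90903706 to 90903968) had a fold enrichment of 3.71 and 3.96 in DKO and 4.81 and 6.74 in Wt. Dusp1, a phosphatase, was the only one of 18 immediate early genes at a shared region, and the authors' deposited table gave 1.78 (SE 0.27), with 10 higher and 0 lower of the 17 measured. Nek7, a kinase that binds Nlrp3, was the only one of 21 inflammasome genes, and the authors' deposited table gave 1.72 (SE 0.28), with 6 higher and 5 lower of the full list. None of 15 gastric genes had a shared region, although the authors' deposited table called 7 of the 10 measured higher. Among 23 cell junction genes, 5 had a shared region. Of these, the authors' deposited table had Cgnl1 (2.70, SE 0.28), Cldn12 (2.30, SE 0.24) and Tjp1 (0.64, SE 0.22) higher and Ctnnb1 (-0.50, SE 0.21, adjusted p = 0.0418) lower, against 9 higher and 5 lower of all 23.

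The genes of the series title were not at shared regions. Cdx2, Cdx1 and Trim31 each had a Wt-only region within 1 kb, and Nlrp3 had no region. Each gene was given 1 kind of region, so a region with a DKO peak can also lie within 1 kb. Cdx1 was placed by both ends of its span, without strand. For Cdx2 the authors' deposited table gave -0.27 (SE 0.21, adjusted p = 0.301), a sum over the gene that does not test for loss of an exon. Cdx1 had -1.06 (SE 0.23, adjusted p = 2.08e-05) by the authors' deposited table, at a mean of 2595 normalized counts over libraries that are all labelled Cdx1-/-. That level goes against an absence of Cdx1 RNA, and which part of the gene the allele removes is not given in the sources used here. Trim31 had -1.48 (SE 0.45, adjusted p = 0.00135) by the authors' deposited table. Nlrp3 had 1.88 (SE 1.78, adjusted p = 0.0578) by the authors' deposited table, at a mean of 8.77 normalized counts.

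Chromosome X held 109 shared regions, or 4.46 per 100 regions of that chromosome, the highest rate of the 20 chromosomes and against 2.82 on chromosome 7, the lowest. Of the peaks in each list, 3.15% and 3.41% lay on chromosome X in the DKO libraries and 1.84% and 1.74% in the Wt libraries (exact permutation test, two-sided, p = 0.333, the smallest possible). Chromosome Y held 0 and 0 peaks in the DKO lists and 4 and 6 in the Wt lists. A difference in sex between the ATAC-seq groups cannot be told apart from the genotype here. For the separate RNA-seq libraries, the authors' deposited table gave the Y-linked Ddx3y a mean of 427 normalized counts and 0.10 (SE 0.92, adjusted p = 0.801). Without chromosome X, the authors' deposited table had 32.5% of 3075 genes at shared regions higher and 12.5% lower.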

How the data were processed

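Among the tools in the submitters' processing notes are MACS2, Bowtie2, BWA, DESeq2, fastp and Salmon 1.3.0. Those notes list GRCm38 and mm10 as builds, with no role for any tool. For settings, transposase read shift and ChIP control, the entry is: not given in the sources used here. Each peak carries the fold enrichment ratio against its surroundings that the authors' peak caller wrote. The -log10 p and -log10 q of each peak and its score, a multiple of -log10 q, are also as deposited, and the smallest -log10 q was 1.30 in ATAC-seq and 1.54 in ChIP-seq. Peaks were called per library, as the deposited peak names show. For each gene, the deposited table has the mean of normalized counts, a signal that the authors scaled between libraries. The log2 fold changes (DKO over Wt), standard errors and p-values of the table are the authors' own, per the file headers.

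Regions were built in Python 3.11.15 (numpy 2.4.6, pandas 2.3.3, scipy 1.17.1, matplotlib 3.10.9) by merging peaks that overlap by at least 1 bp, and the code was checked on simulated peaks. Gene starts came from RefSeq GRCm38.p6, with strand for 26794 of 34328 protein-coding and lncRNA genes and as both ends of the span for the rest. Where several kinds of region lay within 1 kb of a gene's starts, the gene was given 1 kind, in a fixed order. The order was shared, all 4 lists with a Cdx2 peak, Wt-only, 3 lists, both DKO lists only, and the rest. A gene counted as Wt-only can therefore also have a region with a DKO peak within 1 kb. Of the 17511 genes of the table, 15151 (86.5%) were placed, by Entrez ID or symbol, 12114 of them with strand. The planned gene-level test on the estimated counts was left out, since no source at hand links transcript IDs to genes, so gene values are the authors' and have no value per library. No set test was used. Named genes, predicted gene models left out, are those called at a mean of at least 100 normalized counts with the 8 highest and 8 lowest log2 fold changes, the 8 strongest regions near and far from starts, and up to 4 genes per list by mean count plus up to 2 by change. A few genes that this rule names are not reported here. The regions and the 18 gene lists were chosen with earlier results of these data known. Other thresholds, overlaps and windows were tried, and each ATAC-seq library was left out in turn.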

Additional observations from a re-analysis of the deposited data

How the results depend on the processing

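No paired analysis was possible because the deposited gene table has no value per library and the peak lists carry no test between groups, so replicate numbers could not be used as a block. The planned gene-level fit, with its leave-one-out, DESeq2 and block alternatives, was not run for lack of a map from transcripts to genes. Leaving out 1 ATAC-seq library at a time gave 3950 to 7137 shared regions (main 3655), the highest without DKO replicate 1. It gave 76.4% to 81.5% of summits within 1 kb of a start (main 83.2%), a mean median percentile of 73.8 to 78.6 (main 78.1) and a mean summit distance of 90.3 to 129 bp (main 126 bp). By the authors' deposited table the genes called at shared regions were then 1028 to 1686 (higher) and 394 to 840 (lower), with most again without DKO replicate 1. With ATAC-seq peaks at a -log10 q of at least 3 there were 2007 regions, 85.4% of summits near starts, with 622 genes higher and 207 lower by the authors' deposited table. That count is smaller because fewer peaks enter. Merging at an overlap of at least 100 bp gave 84.9% of summits near starts, a base common to all lists 85.4%, windows of 250 and 5000 bp 58.8% and 88.7%, and starts of protein-coding genes alone, tried after seeing the data, 81.2%. Changes of at least 2-fold by the authors' deposited table left 559 genes higher and 241 lower. In each of these alternatives the higher calls outnumbered the lower. Peak lists without read counts leave the depth behind each region unknown, so a region absent from a list is not shown to be closed.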

Other observations

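Shared regions lay on all 20 chromosomes, from 109 on chromosome X to 291 on chromosome 1. Neighbouring shared regions were a median of 303 kb apart, and 61 pairs lay under 5 kb from each other. The 84 regions at gene starts that were in all 4 lists and overlapped a Cdx2 peak resembled the shared ones in composition, with a median of 28 CpGs over 87 promoters, against 27 over 3040. Calls by the authors' deposited table put 26 of 89 measured genes at such regions (29.2%) higher and 10 (11.2%) lower. The 5305 regions in both DKO lists and neither Wt list were seldom at starts (6.31%). Of the 40 measured genes given this kind, the authors' deposited table had 45% lower and 5% higher, against 18.3% and 18.5% of all genes. These 40 are the genes left after the kinds earlier in the fixed order, so other genes can lie beside such regions too. These 40 genes had a median of 24.8 mean normalized counts, against 242 over all genes. Other kinds with low counts leaned the same way by the authors' deposited table. Genes with a region in 1 list, or in 1 of each group, had 31.3% lower and 10.97% higher (median 41.6). Genes with no region had 23.7% lower and 14.6% higher (median 36.9).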
